A study of Mus musculus with 6 samples.

Results

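Neutrophils carry antimicrobial proteins in granules that form in sequence as the cell matures in the bone marrow. Primary (azurophil) granules fill first, at the promyelocyte stage, with myeloperoxidase and serine proteases. Secondary (specific) granules follow, with lactoferrin and cathelicidin, while calprotectin, a calcium- and zinc-binding pair of S100 proteins, fills the cytosol of maturing and circulating cells. In liver tumors such transcripts mark granulocytes in the tissue or in its blood.

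The 10 genes described here were picked from the deposited gene table by symbol, of 47643 genes in all. They are S100a8 and S100a9 (the calprotectin chains), Ngp, Ltf and Camp (secondary granule proteins), Mpo and Elane (primary granule enzymes), Cxcr2 and Csf3r (surface receptors) and Retnlg (a secreted resistin-like protein). The list was drawn up with earlier results of these libraries known, so differences between treatment groups in these 10 genes are given as a description, and no p-value is printed for them. Bulk RNA was sequenced from liver tumors of FVB/N mice in 2 groups of 3 libraries, GSK3326595 at 50 mg/kg/day for 2 weeks and vehicle. GSK3326595 inhibits PRMT5, an arginine methyltransferase. Mice of both groups carried LAP-tTA and tetO-MYC: a liver-active promoter drives a transactivator that doxycycline blocks, so MYC comes on in the liver when the drug is withdrawn. All had doxycycline at 100 mg/L in the drinking water until 4 weeks of age and then 8 weeks with MYC on before treatment. The labels number the replicates without tying each to its own mouse; p-values then reflect only how much these samples vary, and that variation may be technical.

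Libraries held 25814339 to 32427490 expected counts in the GSK3326595 group and 31480006 to 33621083 in the vehicle group; a gene at 0 in the smallest library may still have had up to 0.108 CPM (counts scaled to a common library size), the level of 3 counts. On the first principal component over all genes, GSK3326595 replicate 2 scored 103.1, while scores of the remaining 5 ran from -50.2 to 9.37. Hepatocyte markers were abundant in every library: the 12 on the list summed to 17660 to 54860 CPM in the GSK3326595 libraries and 34120 to 67440 CPM in the vehicle libraries. The 10 neutrophil genes together summed to 8.16, 16.9 and 3.46 CPM in GSK3326595 replicates 1, 2 and 3, against 7.30, 260.9 and 3.91 CPM in vehicle replicates 1, 2 and 3. Vehicle replicate 2 thus held 86.8% of the summed CPM of all 6 libraries. In bulk tissue, fewer cells of a type and less RNA per cell cannot be told apart.

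**Figure D1:**
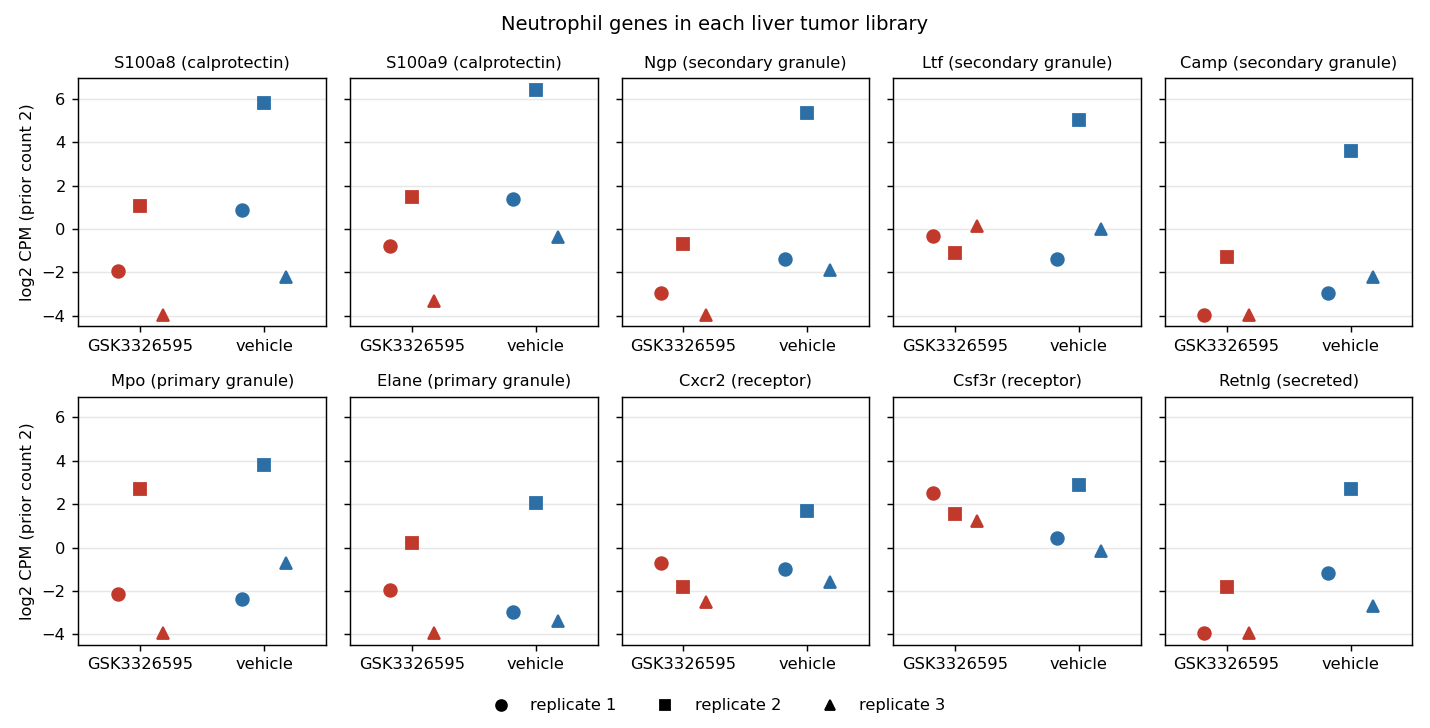
Log2 CPM (prior count 2, y axis) of each of the 10 genes in the 3 GSK3326595 libraries (red) and the 3 vehicle libraries (blue); each point is 1 library and its shape is the replicate number. Vehicle replicate 2 is the highest library for all 10 genes, with Mpo in GSK3326595 replicate 2 at 6.51 CPM, against 13.9 CPM in vehicle replicate 2.

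The calprotectin pair had the highest CPM of the 10 genes in vehicle replicate 2 and little elsewhere; in all 3 GSK3326595 libraries and vehicle replicate 3, Csf3r was above both chains in CPM. S100a8 (chromosome 3, 90668978 to 90670035, plus strand, GRCm38) had 6, 65 and 0 expected counts in GSK3326595 replicates 1, 2 and 3, against 55, 1637 and 5 in vehicle replicates 1, 2 and 3. S100a9 (chromosome 3, 90692632 to 90695721, minus strand) had 16, 88 and 1 in GSK3326595, against 80, 2519 and 24 in vehicle. Vehicle replicate 2 held 92.6% of all S100a8 counts and 92.3% of all S100a9 counts; the second highest library was GSK3326595 replicate 2 for both, and the groups overlapped. S100a8 averaged 0.736 ± 1.11 CPM in GSK3326595 and 19.2 ± 31.6 CPM in vehicle (SD, n = 3 each), and S100a9 averaged 1.09 ± 1.44 CPM in GSK3326595 and 29.7 ± 48.5 CPM in vehicle (SD, n = 3 each). For both genes the SD was larger than the mean in each group. The fitted log2 differences, GSK3326595 minus vehicle, were -4.68 ± 2.24 for S100a8 and -4.74 ± 2.04 for S100a9 (SE). Without vehicle replicate 2 they were -0.36 and -0.57.

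The chains kept a similar ratio in the libraries with enough counts to measure it. S100a8 made up 42.5% of the counts of the pair in GSK3326595 replicate 2 (95% exact Clopper-Pearson interval 34.5% to 50.7%, 153 counts), against 40.7% in vehicle replicate 1 (32.4% to 49.5%, 135 counts) and 39.4% in vehicle replicate 2 (37.9% to 40.9%, 4156 counts). Vehicle replicate 3 had 17.2% of 29 counts (5.85% to 35.8%), below the interval of vehicle replicate 2. These intervals, and the limit for a count of 0, cover counting error only.

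The secondary granule genes followed the same library. Ngp, a cystatin-like granule protein (chromosome 9, 110419747 to 110423012, plus strand), had 2, 18 and 0 counts in GSK3326595 replicates 1, 2 and 3, against 10, 1188 and 7 in vehicle replicates 1, 2 and 3. Camp, the cathelicidin antimicrobial peptide precursor (chromosome 9, 109847379 to 109849617, minus strand), had 0, 11 and 0 in GSK3326595, against 2, 356 and 5 in vehicle. Both were close to 0 outside vehicle replicate 2, which held 97.0% of the Ngp counts and 95.2% of the Camp counts. Ltf, the iron-binding lactoferrin (chromosome 9, 111019271 to 111042767, plus strand), had 23, 13 and 29 counts in GSK3326595, against 10, 946 and 31 in vehicle. Unlike Ngp and Camp, Ltf had at least 10 counts in all 6 libraries, and GSK3326595 replicate 3, with 0 counts of Ngp and Camp, had 29 of Ltf. Average levels were 0.207 ± 0.305 CPM of Ngp in GSK3326595 and 13.6 ± 23.2 CPM in vehicle, and 0.730 ± 0.322 CPM of Ltf in GSK3326595 and 11.1 ± 18.2 CPM in vehicle (SD, n = 3 each). The fitted log2 differences were -5.98 ± 2.05 for Ngp, -5.08 ± 1.97 for Camp and -3.93 ± 1.66 for Ltf (SE); without vehicle replicate 2 they were -0.31, 0.13 and 0.22.

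The primary granule enzymes were high in vehicle replicate 2 and, at a lower level, in GSK3326595 replicate 2. Mpo, the myeloperoxidase (chromosome 11, 87793581 to 87804413, plus strand), had 5, 210 and 0 counts in GSK3326595 replicates 1, 2 and 3, against 4, 408 and 18 in vehicle replicates 1, 2 and 3. Elane, neutrophil elastase (chromosome 10, 79886247 to 79888215, plus strand), had 6, 35 and 0 in GSK3326595, against 2, 122 and 1 in vehicle. The number 2 library stood far above the other libraries in both groups, so the groups overlapped. Mpo averaged 2.22 ± 3.71 CPM in GSK3326595 and 4.85 ± 7.82 CPM in vehicle, and Elane 0.426 ± 0.579 CPM in GSK3326595 and 1.41 ± 2.37 CPM in vehicle (SD, n = 3 each). The fitted log2 difference of Mpo was -1.11 ± 2.03, or 2.72 without vehicle replicate 2 and -5.76 without GSK3326595 replicate 2. For Elane it was -1.71 ± 1.61, or 3.11 and -3.74 without those same libraries. Mpo overlaps an antisense gene, Gm11505, and the strand setting of the counting is unknown; no other of the 10 genes overlaps an annotated gene.

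The balance of primary to secondary granule transcripts therefore differed between the highest libraries. Of the summed counts of Mpo, Elane, Ngp, Ltf and Camp, Mpo and Elane made up 85.4% in GSK3326595 replicate 2 (95% exact interval 80.7% to 89.3%, 287 counts), against 17.5% in vehicle replicate 2 (16.2% to 19.0%, 3020 counts). These intervals are far apart, and compare a pair of libraries, not the treatments. The share was 30.6% of 36 counts in GSK3326595 replicate 1 and 0 of 29 in GSK3326595 replicate 3 (interval up to 11.9%), against 21.4% of 28 in vehicle replicate 1 and 30.6% of 62 in vehicle replicate 3, with wide intervals. The shares rest on Ltf where counts are few. Without Ltf, Mpo and Elane made up 84.6% of 13 counts in GSK3326595 replicate 1 and 89.4% of 274 in GSK3326595 replicate 2, with no counts in GSK3326595 replicate 3, against 33.3% of 18 in vehicle replicate 1, 25.5% of 2074 in vehicle replicate 2 and 61.3% of 31 in vehicle replicate 3. GSK3326595 replicate 2 was still far above vehicle replicate 2, and GSK3326595 replicate 1 lay near GSK3326595 replicate 2 on 13 counts. Other primary granule genes were mixed. Ctsg, the protease cathepsin G, had 0, 37 and 0 counts in GSK3326595, against 0, 49 and 4 in vehicle, and Ms4a3, a membrane protein of granulocyte precursors, had 0, 10 and 0 in GSK3326595, against 0, 31 and 0 in vehicle. In Prss57, a serine protease, GSK3326595 replicate 2 did not stand out, with 15, 13 and 4 counts in GSK3326595, against 2, 32 and 3 in vehicle, and Prtn3, described further on, was lowest in that library. Ctsg, Ms4a3 and Prss57 were named after their values were seen.

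**Figure D2:**
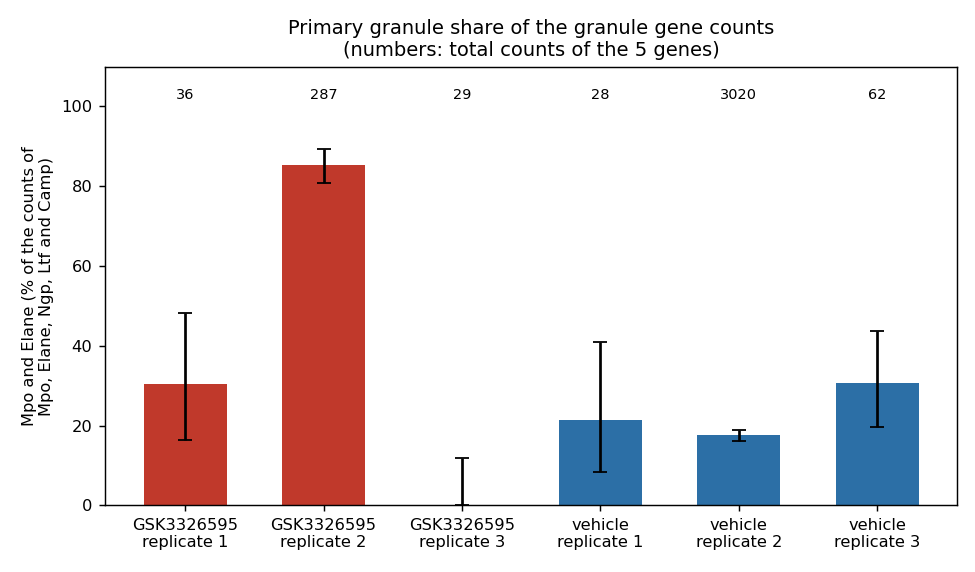
Share of Mpo and Elane (y axis, percent) in the summed counts of Mpo, Elane, Ngp, Ltf and Camp, for the 3 GSK3326595 libraries (red) and the 3 vehicle libraries (blue); bars start at 0, error bars are 95% exact binomial intervals and the number above each bar is the total count. GSK3326595 replicate 2, at 85.4%, stands apart from vehicle replicate 2, at 17.5%.

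The receptors and Retnlg split. Cxcr2, the chemokine receptor that draws mature neutrophils out of marrow and into tissue (chromosome 1, 74153989 to 74161246, plus strand), had 17, 7 and 3 counts in GSK3326595 replicates 1, 2 and 3, against 14, 94 and 9 in vehicle replicates 1, 2 and 3. Retnlg, expressed by mature mouse neutrophils (chromosome 16, 48872621 to 48874496, plus strand), had 0, 7 and 0 in GSK3326595, against 12, 187 and 3 in vehicle. Both were high in vehicle replicate 2 alone. The fitted log2 differences were -2.13 ± 1.07 for Cxcr2 and -4.84 ± 1.67 for Retnlg (SE), or -0.28 and -1.59 without vehicle replicate 2.

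Csf3r, the receptor for the granulocyte growth factor G-CSF (chromosome 4, 126024550 to 126044440, plus strand), was the exception. It had 178, 91 and 63 counts in GSK3326595 replicates 1, 2 and 3, against 40, 213 and 28 in vehicle replicates 1, 2 and 3, or 3.61 ± 1.86 CPM in GSK3326595 and 3.12 ± 3.58 CPM in vehicle (SD, n = 3 each). All 3 GSK3326595 libraries lay above vehicle replicates 1 and 3 and below vehicle replicate 2. The log2 difference was 0.21 ± 0.84 (SE), and 1.77 without vehicle replicate 2. Csf3r made up 70.4%, 16.7% and 65.6% of the counts of the 10 genes in GSK3326595 replicates 1, 2 and 3, against 17.5%, 2.78% and 21.4% in vehicle replicates 1, 2 and 3. GSK3326595 replicate 2 thus lay with vehicle replicates 1 and 3 (95% exact intervals 13.7% to 20.1%, against 12.8% to 23.0% and 14.7% to 29.4%). GSK3326595 replicate 1, the highest library for Csf3r after vehicle replicate 2, also had the highest sum of 12 macrophage and Kupffer cell markers, at 1731 CPM, against 611 and 635 CPM in the other GSK3326595 libraries and 544 to 788 CPM in vehicle; the part of such cells in the Csf3r level was not tested.

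Scaled to exon length, the order of the genes changed with the library. In vehicle replicate 2 it ran from S100a9 at 164.1 CPM per kb of exon and S100a8 at 80.2 through Ngp at 33.1, Camp at 15.98, Retnlg at 10.7 and Ltf at 9.33 to Elane at 4.22, Mpo at 4.05, Csf3r at 2.01 and Cxcr2 at 1.05. In GSK3326595 replicate 2, S100a9 at 5.23 CPM per kb and S100a8 at 2.90 were followed by Mpo at 1.90 and Elane at 1.10, ahead of Csf3r at 0.782, Ngp at 0.457 and Camp at 0.450. In GSK3326595 replicate 1, Csf3r led at 1.59 CPM per kb, and S100a9 had 0.988. Each order comes from 1 library, so neighbours in it, such as Elane and Mpo in vehicle replicate 2, cannot be called different.

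By edgeR's quasi-likelihood test over 17012 genes that passed a filter on low counts, 0 of the 6 members that passed were called higher or lower at an adjusted p under 0.05, where 0% of all genes were called in either direction. At an unadjusted p under 0.05, 0 of the 6 were higher, beside 5.45% of all genes, and 0 lower, beside 3.81%. DESeq2, which called 1.1% of all genes higher and 0.591% lower, gave no adjusted p for S100a8, S100a9, Ltf and Mpo and called neither Cxcr2 nor Csf3r. Elane, Retnlg, Ngp and Camp did not pass the filter, which needs about 10 counts in 3 libraries; their log2 differences above come from a fit with no filter, in which 6 of the 10 genes were lower at an unadjusted p under 0.05, beside 2.58% of all 27765 genes, and 0 higher, beside 5.57%. Those 6 were S100a8, S100a9, Ngp, Ltf, Camp and Retnlg, of whose counts vehicle replicate 2 held 89.5% to 97.0%. In 0 of the 10 genes were the groups free of overlap, whereas 6.72% of all kept genes were higher and 7.66% lower without overlap. By sign alone, 1 of the 6 kept members was higher, beside 53.1% of all genes, and 5 lower, beside 46.9%; with no filter 1 of 10 was higher, beside 57.4%, and 9 lower, beside 42.6%. The median log2 difference was -3.03 over the 6 members, beside 0.03 over all genes; it was -0.031 without vehicle replicate 2 and -5.76 over 7 members without GSK3326595 replicate 2. With vehicle replicate 2 left out, 1 of 6 fitted members, Csf3r, was higher at an unadjusted p under 0.05, beside 4.24% of all genes, and 0 were lower, beside 1.37%.

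**Figure D3:**
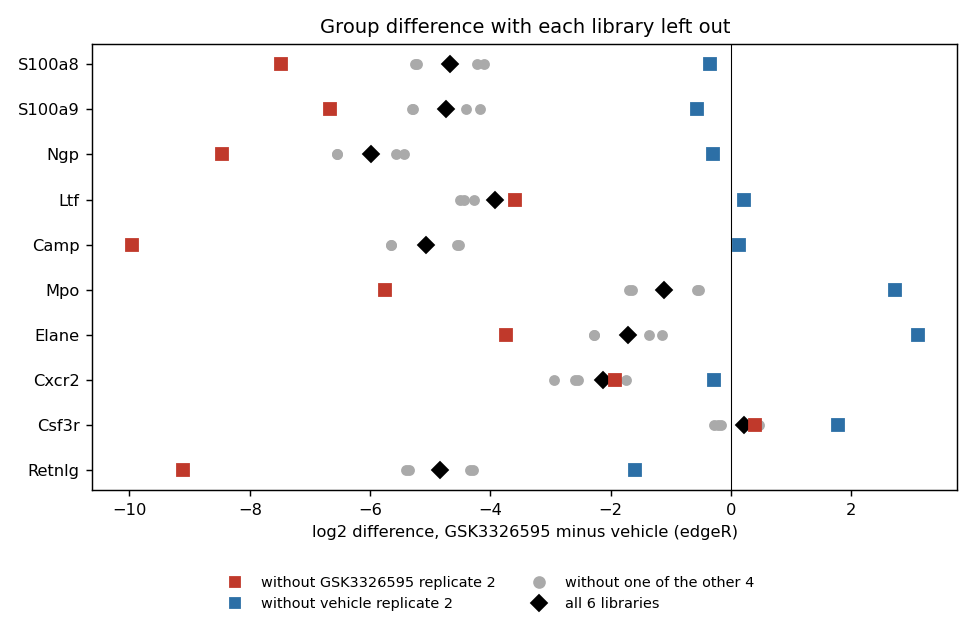
Fitted log2 difference, GSK3326595 minus vehicle (x axis), of each of the 10 genes with all 6 libraries (black diamonds), without GSK3326595 replicate 2 (red squares), without vehicle replicate 2 (blue squares) and without each of the other 4 libraries (grey). Leaving out vehicle replicate 2 brings S100a8, S100a9, Ngp, Ltf, Camp and Cxcr2 to between -0.57 and 0.22, and takes Mpo and Elane to 2.72 and 3.11. Where both GSK3326595 libraries left are at 0, as for Camp and Retnlg without GSK3326595 replicate 2, the fitted value depends on a prior count.

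The spread between libraries of a group was wide for these genes. The SD of log2 CPM among the 3 GSK3326595 libraries ran from 0.63 for Ltf and 0.69 for Csf3r to 3.45 for Mpo, beside a median of 0.43 over all kept genes. Among the 3 vehicle libraries it ran from 1.60 for Csf3r to 4.05 for S100a8, beside a median of 0.26. For each of the 10, at least 98.48% of all kept genes had a smaller vehicle SD. That background was not matched for level, and Elane, Retnlg, Ngp and Camp did not pass its filter. In the GSK3326595 group the corresponding share ran from 69.5% for Ltf to 99.7% for Mpo.

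Vehicle replicate 2 stood at least 4-fold above every other library, a level set after the counts were seen, in 7 of the 10 genes: S100a8, S100a9, Ngp, Ltf, Camp, Cxcr2 and Retnlg. Over all 19766 genes with at least 20 counts the same held for 35, or 0.177%. Elane, at 3.82-fold over the next library, Mpo at 2.13-fold and Csf3r at 1.26-fold were below that level, and Cxcr2, at 5.83-fold, was just above it. Of 61 other genes of the neutrophil lists with at least 20 counts, 10 were among the 35: Cd177, a surface protein of neutrophils, Mmp8 and Mmp9, the collagenase and gelatinase of neutrophil granules, Il1r2, a decoy receptor, Ly6g, the usual surface marker of mouse neutrophils, Olfm4, Ifitm6, Mcemp1, Mrgpra2b and BC100530. Mmp8 had 5, 8 and 6 counts in GSK3326595 replicates 1, 2 and 3, against 16, 181 and 1 in vehicle replicates 1, 2 and 3, and Ly6g had 0, 0 and 1 in GSK3326595, against 0, 20 and 2 in vehicle. The remaining 18 of the 35 lay outside those neutrophil lists. They include Chil3, a chitinase-like protein of monocytes and neutrophils, with 6, 15 and 2 counts in GSK3326595, against 58, 1271 and 9 in vehicle. Chil3 was on the monocyte list, and was picked out here after its values were seen. F13a1, of the same list, was also among the 18, at 6.07-fold. It had 26, 32 and 21 counts in GSK3326595, against 45, 256 and 18 in vehicle. The same level was reached in 0.253% of genes by GSK3326595 replicate 1, 2.28% by GSK3326595 replicate 2 and 0.0708% by GSK3326595 replicate 3. It was reached in 0.00506% by vehicle replicate 1 and 0.0304% by vehicle replicate 3. Vehicle replicate 2 was the highest library for all 10 genes, so no other library could reach that level in any of them.

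**Figure D4:**
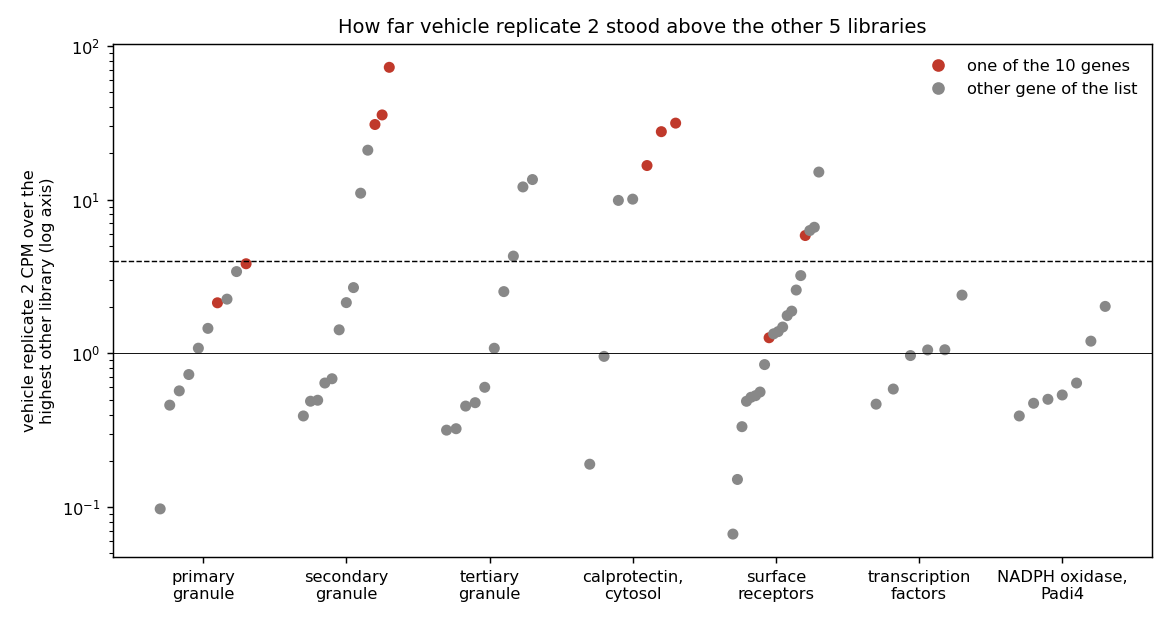
CPM of vehicle replicate 2 over the highest of the other 5 libraries (y axis, log scale; libraries under 3 counts set to 3) for genes of 7 neutrophil lists with at least 20 counts; each point is a gene, red for the 10 genes described and grey for others. The dashed line marks 4-fold. Genes above it are in the secondary and tertiary granule, cytosol and receptor lists, and none is in the primary granule, transcription factor or NADPH oxidase lists. That level was set after the counts were seen. The primary granule genes Elane, at 3.82-fold, and Ms4a3, at 3.40-fold, lie under it, and Mcemp1, at 4.29-fold, lies above it.

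The genes whose profile over the 6 libraries lay nearest to that of an anchor were found by the root mean square distance of centred log2 CPM, among genes kept by the filter. Nearest to S100a9 were S100a8 (0.50), Chil3 (0.86), RP23-366O14.4 (1.43), Gm13614 (1.44) and Serpina3n, a secreted protease inhibitor (1.45). Nearest to Ngp were S100a9 (0.72), Chil3 (0.84), S100a8 (0.92), Mpo (1.61) and RP23-366O14.4 (1.67). The filter dropped 4 of the 10 genes, Ngp and Camp among them; among all genes with at least 20 counts, a choice made after seeing the data, Camp (0.63) was nearest to Ngp. Among genes kept by the filter, nearest to Csf3r were Chst11 (0.22), Tmem154 (0.25) and C5ar1, the complement C5a receptor of myeloid cells (0.27). Next came Slc2a3, a glucose transporter (0.28) and Ccl4, a chemokine (0.29). None of the other 9 genes was among them.

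Promoters are shown for a calprotectin chain, a pair of secondary granule genes and a primary granule gene, since those sets differed in GSK3326595 replicate 2. Sequences are RefSeq's (GRCm38.p6), which listed all 10 genes, read 5′ to 3′ on the gene's strand and ending before its annotated start. Capitals mark matches on either strand, none overlapping another in these stretches. The searched letters were TTGCNNAA for C/EBP factors, which drive many granulocyte genes during maturation of the lineage. For PU.1, a regulator of myeloid genes from the progenitor stage on, they were GAGGAAG. For RUNX factors, which act in blood cell precursors, they were TGTGGT. The general TATA box, bound by the basal transcription machinery, was searched as TATAAA and has no match in the stretches printed.
S100a9, chr3:90695722-90695971, minus strand: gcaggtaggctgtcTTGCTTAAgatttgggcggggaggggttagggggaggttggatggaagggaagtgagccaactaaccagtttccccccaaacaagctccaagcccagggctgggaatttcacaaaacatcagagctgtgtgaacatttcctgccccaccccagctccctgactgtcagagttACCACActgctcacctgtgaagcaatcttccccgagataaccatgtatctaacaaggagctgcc
Ngp, chr9:110419558-110419746, plus strand: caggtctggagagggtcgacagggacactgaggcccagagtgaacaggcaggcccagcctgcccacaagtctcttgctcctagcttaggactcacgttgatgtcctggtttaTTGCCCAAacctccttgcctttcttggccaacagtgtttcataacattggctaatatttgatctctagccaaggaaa
Ltf, chr9:111019042-111019270, plus strand: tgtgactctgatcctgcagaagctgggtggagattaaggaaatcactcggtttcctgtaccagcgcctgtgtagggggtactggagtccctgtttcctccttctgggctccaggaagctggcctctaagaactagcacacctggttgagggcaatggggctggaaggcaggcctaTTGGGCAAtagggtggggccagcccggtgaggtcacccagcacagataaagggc
Elane, chr10:79886062-79886246, plus strand: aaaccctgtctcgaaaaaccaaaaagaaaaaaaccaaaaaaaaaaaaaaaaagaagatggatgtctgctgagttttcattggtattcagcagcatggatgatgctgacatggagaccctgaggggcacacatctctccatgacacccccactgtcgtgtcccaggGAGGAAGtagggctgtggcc
Over the full window of 250 bases before to 50 after each start, the C/EBP letters were in 4 of the 10 promoters (S100a9, Ngp, Ltf and Retnlg), beside 10.8% of 32851 promoters. The PU.1 letters were in S100a8, Csf3r, Elane and Mpo, beside 13.6%; the RUNX letters in S100a9 and Ltf, beside 16.8%; and the TATA letters in S100a8 and S100a9, beside 13.6%. A match is a description of these letters, not a site of binding.

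Other genes of neutrophil granules did not share one direction. These lists were written with earlier results of these libraries known, and by edgeR 0 genes of any of them passed the adjusted threshold. The counts by sign cover only genes kept by the filter on low counts, and 53.1% of all kept genes were positive. Several genes counted mostly in vehicle replicate 2, such as Cd177 and Ly6g, did not pass that filter. Of 6 other primary granule genes kept, 4 had positive and 2 negative log2 differences. The most abundant were lysosomal proteins that many cells make: Ctsd, an aspartic protease, averaged 1089 ± 503 CPM in GSK3326595 and 626 ± 123 CPM in vehicle, and Ctsc, which activates granule proteases, 79.8 ± 20.1 CPM in GSK3326595 and 45.0 ± 11.3 CPM in vehicle (SD, n = 3 each).

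Prtn3, proteinase 3, a primary granule protease whose gene lies beside Elane on chromosome 10 (79874476 to 79883174, plus strand), had a pattern of its own. It had 185, 71 and 311 counts in GSK3326595 replicates 1, 2 and 3, against 705, 713 and 542 in vehicle replicates 1, 2 and 3. All 3 GSK3326595 libraries were below all 3 vehicle libraries, at 6.46 ± 4.53 CPM in GSK3326595 and 21.0 ± 4.24 CPM in vehicle (SD, n = 3 each; log2 difference -1.70 ± 0.56, SE; edgeR adjusted p = 0.522, not past the threshold). Vehicle replicates 1 and 3 had 705 and 542 Prtn3 counts where they had 2 and 1 of Elane. Prtn3 overlaps Plppr3 on the other strand, and the part of reads from that gene was not tested.

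Among secondary granule genes, Lcn2, a siderophore-binding protein that hepatocytes also secrete in the acute phase, had 1344, 384 and 94 counts in GSK3326595 replicates 1, 2 and 3, against 3936, 7878 and 269 in vehicle replicates 1, 2 and 3 (log2 difference -2.77 ± 1.31, SE; edgeR adjusted p = 0.566). Here vehicle replicate 1 was high as well, unlike for Ngp. Lyz2, lysozyme of myeloid cells, averaged 487 ± 279 CPM in GSK3326595 and 279 ± 105 CPM in vehicle; Hp, haptoglobin, 436 ± 559 CPM in GSK3326595 and 443 ± 290 CPM in vehicle; and Cyba, an oxidase subunit, 100.2 ± 72.7 CPM in GSK3326595 and 101.9 ± 41.2 CPM in vehicle (SD, n = 3 each). Of the 8 kept other genes, 3 had positive and 5 negative log2 differences. Of 7 kept tertiary granule genes, 6 were positive and 1 negative. The dropped genes of that list, Mmp8, Mmp9 and Mcemp1, had -3.37, -2.90 and -1.49 in the fit with no filter. Among the most abundant of the list, Itgb2, the leukocyte integrin chain, averaged 50.7 ± 23.6 CPM in GSK3326595 and 25.1 ± 9.19 CPM in vehicle (SD, n = 3 each). Adam8, a surface protease, averaged 29.4 ± 22.2 CPM in GSK3326595 and 25.3 ± 29.5 CPM in vehicle (SD, n = 3 each). The other 2 of highest level there, Arg1 and Slc11a1, are made by hepatocytes and macrophages too, with log2 differences of 0.08 ± 0.70 and 0.66 ± 0.71 (SE).

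Of the 8 other genes of the cytosolic list, only 2 were kept, and both were positive. Of these, Wfdc21, a secreted whey acidic protein family member, had 11, 1616 and 62 counts in GSK3326595 replicates 1, 2 and 3, against 159, 280 and 111 in vehicle replicates 1, 2 and 3. The dropped genes with any counts were all highest in vehicle replicate 2 and negative in the fit with no filter. Their log2 differences were -2.80 for Ifitm6, -3.75 for BC100530, -4.51 for Stfa2, -3.55 for Stfa2l1 and -2.66 for Stfa3. The Stfa genes had at most 8 counts in any library. Of 11 kept other surface receptors, 7 had positive log2 differences, beside 53.1% of all genes, and 4 negative. The 4 of highest level were positive: Ptafr, the platelet-activating factor receptor, at 2.17 ± 0.63, Selplg, a selectin ligand, at 1.14 ± 0.48, Cxcr4, a chemokine receptor, at 0.89 ± 0.73, and Fcgr3, an IgG receptor, at 0.71 ± 0.52 (SE; edgeR adjusted p of 0.490 to 0.749). The 4 negative ones, named after their values were seen, were the formyl peptide receptors Fpr1 at -1.53 ± 0.35 and Fpr2 at -0.58 ± 0.68 (SE), and the lectins Clec4d and Clec4e, both at -0.54 with a larger SE. Receptor genes that the filter dropped were mostly negative in the fit with no filter. Ly6g had -4.00, Mrgpra2b -3.23, Il1r2 -3.05, Trem1 -1.89, Cxcr1 -1.01 and Ltb4r1 -0.85, while Siglecf had 2.08. Of the NADPH oxidase genes and Padi4, 4 of 6 kept were positive. Among these, Cybb, the catalytic subunit, had 0.64 ± 0.48 and Rac2 0.92 ± 0.45 (SE). Of transcription factors of the lineage, Spi1, which encodes PU.1, had a log2 difference of 1.03 ± 0.47, Runx1 0.78 ± 0.58, Cebpb -0.63 ± 0.44 and Cebpd -1.28 ± 0.59 (SE). Cebpe, the C/EBP factor of secondary granule genes, named after its values were seen, had 0, 4 and 0 counts in GSK3326595, against 0, 12 and 3 in vehicle.

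Ligands that draw or mobilise neutrophils gave no common direction, with 4 of 7 kept positive. Cxcl1, a CXCR2 ligand, had 642, 268 and 94 counts in GSK3326595 replicates 1, 2 and 3, against 221, 258 and 90 in vehicle replicates 1, 2 and 3, so that vehicle replicate 2 was not the highest. Cxcl12, the marrow retention signal, had a log2 difference of 0.16 ± 0.31, C3, the source of C3a, -0.93 ± 0.59, and Hmgb1 0.41 ± 0.33 (SE). Csf3, which encodes G-CSF and was named after its values were seen, had 0 counts in all 3 GSK3326595 libraries, against 2, 11 and 0 in vehicle replicates 1, 2 and 3. Among 7 receptors of calprotectin and their partners, Tlr4 had a log2 difference of 1.03 ± 0.47 (SE), Cd36 0.95 ± 0.42, Bsg -0.64 ± 0.22 and Cd14 -1.73 ± 0.80; Cd14 had 117, 60 and 34 counts in GSK3326595, against 148, 469 and 71 in vehicle, highest in vehicle replicate 2.

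Marker lists of other blood cells differed less between vehicle replicate 2 and the other libraries than the 10 genes did. The 4 globin genes of the erythroid list, a measure of red cells in the sample, summed to 253.5, 349.8 and 209.3 CPM in GSK3326595 replicates 1, 2 and 3, against 201.5, 294.2 and 483.8 CPM in vehicle replicates 1, 2 and 3, so vehicle replicate 2 lay below vehicle replicate 3 and GSK3326595 replicate 2. The whole erythroid list came to 408 to 595 CPM in GSK3326595 and 789 to 895 CPM in vehicle, but 587 of the 895 CPM in vehicle replicate 2 were Tfrc, the transferrin receptor, which dividing cells of many kinds express. Without Tfrc, a choice made after seeing the data, the list summed to 265.0, 373.3 and 217.0 CPM in GSK3326595, against 212.4, 307.9 and 505.6 CPM in vehicle. Platelet markers came to 1.77 to 3.75 CPM in GSK3326595, against 2.26, 4.63 and 3.04 CPM in vehicle, highest in vehicle replicate 2. Macrophage and Kupffer cell markers summed to 611 to 1731 CPM in GSK3326595, against 544, 788 and 761 CPM in vehicle. Monocyte markers came to 43.0 to 105.9 CPM in GSK3326595, against 50.6, 105.7 and 53.7 CPM in vehicle. Of the 105.7 CPM in vehicle replicate 2, Chil3 gave 43.2 and F13a1 gave 8.71. The part of blood or monocytes in the neutrophil gene levels was not tested. Eosinophil markers ranged from 1.70 to 5.83 CPM in GSK3326595 and from 4.74 to 5.44 CPM in vehicle, and the eosinophil granule genes Prg2 and Epx had at most 7 counts in any library.

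GSK3326595 replicate 2, the second library high in Mpo and Elane, had mast cell and basophil transcripts at a level no other library reached. The 7 markers summed to 23.4 CPM there, against 0.290 and 0.0361 CPM in GSK3326595 replicates 1 and 3 and 0.0597 to 0.701 CPM in vehicle. Other lists were high there too: acute-phase genes summed to 709, 2389 and 360 CPM in GSK3326595 replicates 1, 2 and 3, against 1264, 2044 and 619 CPM in vehicle replicates 1, 2 and 3. Saa1, a serum amyloid, had 2595 counts in GSK3326595 replicate 2, against at most 52 in any other library, and the hepatocyte genes Tat and Cyp3a11 were over 4-fold above every other library. Cpa3, the mast cell carboxypeptidase, had 289 counts, against at most 5 in any other library, and Mcpt4, a mast cell chymase, had 266, against at most 9. Myb, a factor of blood progenitors, had 52 counts there, against 13 and 5 in GSK3326595 replicates 1 and 3 and 2 to 17 in vehicle. The list of 8 blood progenitor markers that holds Myb was not high there as a whole. It summed to 105.2, 43.4 and 54.9 CPM in GSK3326595 replicates 1, 2 and 3, against 25.0, 45.2 and 35.2 CPM in vehicle replicates 1, 2 and 3. The part of mast cells, basophils or progenitors, or of what sets that library apart in other genes, in the Mpo and Elane levels was not tested. T and NK cell markers summed to 16.3 to 39.0 CPM in GSK3326595 and 6.89 to 10.3 CPM in vehicle, and B and plasma cell markers to 4.29 to 15.9 CPM in GSK3326595 and 2.75 to 4.24 CPM in vehicle; neither was high in vehicle replicate 2.

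**Figure D5:**
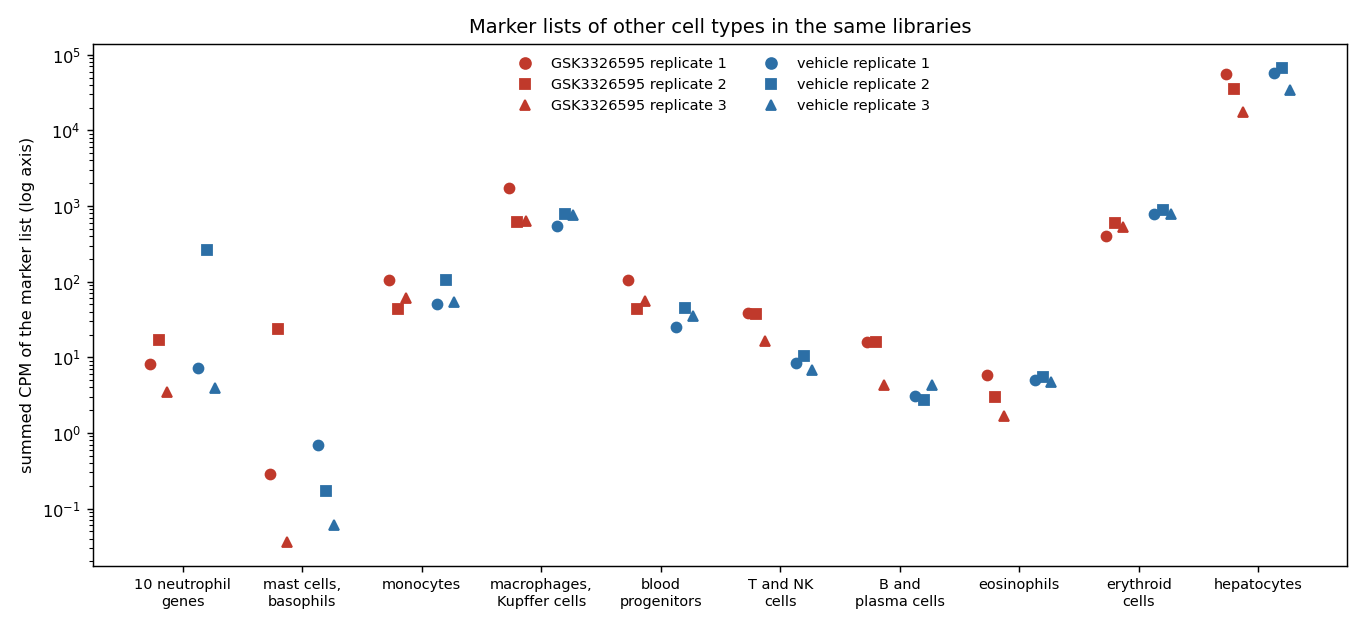
Summed CPM (y axis, log scale) of the 10 neutrophil genes and of marker lists of other cell types in the 3 GSK3326595 libraries (red) and the 3 vehicle libraries (blue); each point is 1 library and its shape is the replicate number. Vehicle replicate 2 stands apart for the neutrophil genes (260.9 CPM) and GSK3326595 replicate 2 for mast cell and basophil markers (23.4 CPM).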

How the data were processed

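The authors deposited expected counts per gene, 1 column per library, unnormalised. The submitters' processing notes name mm10, RSEM, STAR, cutadapt and Picard, with no versions. Libraries were TruSeq stranded total RNA, per the labels. Of the values, 12.3% were not whole (tolerance 0); they were rounded. Genes were kept with filterByExpr (minimum count 10; 17012 genes), normalised by TMM and fitted in edgeR 4.0.16 with its quasi-likelihood test (R 4.3.3; two-sided, Benjamini-Hochberg, threshold 0.05); log2 CPM used a prior count of 2. The SE is the absolute log2 difference over the square root of F. Fits were tested on simulated counts. Alternatives were other scaling and filters, DESeq2 1.42.0, limma-voom (limma 3.58.1), blocking on replicate number and omitting 1 library at a time. Coordinates and exon lengths came from GENCODE M21, by gene ID without version. The members, lists and rules for named genes (the 4 of highest mean CPM per list, and the 5 nearest profiles) were chosen with earlier results of these data known. A few genes that this rule names are not reported here.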

Additional observations from a re-analysis of the deposited data

How the results depend on the processing

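By edgeR no gene was called higher or lower under any scaling, filter, block or left-out library tried, and none by limma-voom; DESeq2 called 186 genes higher and 100 lower, and the cause was not tested. The 10 genes had log2 differences of unchanged sign under every other scaling, filter and tool. Members lower at an unadjusted p numbered 0 of 6 with all libraries (3.81% of all genes), 6 of 10 with no filter on low counts (2.58%) and 2 of 6 under the replicate block (4.58%). DESeq2 fitted 6 and called 1 lower (4.26%). It gave no adjusted p for S100a8, S100a9, Ltf and Mpo, so these cannot be read as tested and not lower. Leaving out a library also changes which genes pass the filter. Members lower then ranged from 0 to 7. They were 7 of 10 without vehicle replicate 3 (4.11%), 4 of 9 without vehicle replicate 1 (1.42%), 2 of 7 without GSK3326595 replicate 2 (4.46%) and 0 in the other 3 cases. Members higher ranged from 0 to 1. The members' median, -3.03, ranged from -5.76 to -0.0314 without each library. Under the replicate block it was -1.53. Signs turned only without single libraries: Csf3r ranged from -0.29 to 1.77, Ltf from -4.50 to 0.22, Camp from -9.97 to 0.13, Mpo from -5.76 to 2.72 and Elane from -3.74 to 3.11. Deviations from the group mean correlated at -0.073, 0.072 and 0.323 for libraries numbered 1, 2 and 3, so the numbers were not taken as pairs. A prior count of 0.5 kept the direction of the mean log2 CPM difference. Counts of 0 to 30, common outside vehicle replicate 2, limit what smaller differences could be seen.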

Other observations

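Serpinb1a, a cytosolic inhibitor of neutrophil serine proteases including elastase, had 27, 1014 and 29 counts in GSK3326595 replicates 1, 2 and 3, against 20, 90 and 11 in vehicle replicates 1, 2 and 3. It was highest in the GSK3326595 library that was also high in Mpo and Elane, and second highest in vehicle replicate 2. Pglyrp1, a peptidoglycan-binding protein of granules, had 7, 20 and 8 counts in GSK3326595, against 81, 203 and 8 in vehicle, so that vehicle replicates 1 and 2 were both high. Fpr1, the formyl peptide receptor, had 24, 23 and 15 counts in GSK3326595, against 47, 74 and 63 in vehicle, without overlap of the groups (log2 difference -1.53 ± 0.35, SE; not past the adjusted threshold of edgeR's test). The gene with the highest ratio of vehicle replicate 2 over the other libraries was the U3 small nucleolar RNA Rnu3a, with 328 counts in that library and 0 in the other 5. These genes were named after their values were seen.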
